A study of Mus musculus with 2 samples.

Results

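The subunits of the proteasome were followed in cells of the hippocampus in mice that model Alexander disease, an astrocyte disorder in which the filament protein GFAP accumulates. Members were all genes whose symbols have the form Psma, Psmb, Psmc, Psmd or Psme followed by a number, apart from Psmb8 and Psmb9, with at least 20 unique molecular identifiers (UMIs, the count of captured mRNA molecules) over both libraries. Of 32285 genes, 41 had such a symbol and 40 passed, with no use of any difference between genotypes. Psmb11, a thymus-specific subunit, was the 1 symbol that missed the minimum, with 11 UMIs. Psma8, a testis-linked ring subunit, was the lowest member that passed, with 228 UMIs, and the next lowest, Psme3, had 2832.

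The 60TM library came from hippocampi of 3 mice of the 60TM line on the C57BL6/J background, whose labelled genotype is GFAP-hGFAP, a human GFAP transgene. The WT library came from 3 C57BL6/J mice. All mice were 7 weeks old, and their hippocampi were dissociated with papain before droplet capture with a 10x Genomics 3' kit. The promoter of the transgene is given only by the line's name, and the transgene has no row of its own in the mouse gene table, so it could not be checked directly. Mouse Gfap stood at 1225 CPM (a gene's share of all UMIs counted in that class, scaled to a fixed total) in 60TM astrocytes and 384 CPM in WT astrocytes, a ratio of 3.19 (95% interval 3.05 to 3.33). Because each genotype is 1 library without a map from cells to mice, there is no replicate check, no difference was tested, and every interval below covers counting error only.

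After filtering, the 60TM library held 7575 cells and 70839273 UMIs (median 7502 per cell), and the WT library 6086 cells and 57439787 UMIs (median 7216). Cells were sorted into classes by fixed marker genes, and 13 classes had at least 50 cells in each library. Unnamed clusters held 11.7% of 60TM cells and 6.87% of WT cells and were left out. The libraries shared 20 cell barcodes, of which 14 had both cells kept. Transcripts of Ttr, a choroid plexus gene that free RNA can carry into other droplets, were at 439 CPM in 60TM and 25.4 CPM in WT astrocytes, and at 373 CPM in 60TM and 33.5 CPM in WT microglia.

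The proteasome is the barrel-shaped protease that degrades proteins tagged with ubiquitin. Its core particle is built of outer alpha rings that gate the entrance and inner beta rings that hold the catalytic sites, and its regulatory cap recognises, unfolds and threads the substrate. Under interferon the catalytic subunits Psmb5, Psmb6 and Psmb7 give way to Psmb8, Psmb9 and Psmb10, which form the immunoproteasome. Interferon also raises the alternative activator ring of Psme1 and Psme2, which opens the core without the cap. When proteasome activity falls, the transcription factor Nfe2l1 raises most subunit genes together. In Alexander disease the aggregates of GFAP, called Rosenthal fibres, carry ubiquitin, and impaired proteasome function has been described in cells that overproduce GFAP.

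The 40 members comprised 16 core subunits (8 alpha ring, 4 structural beta ring, the 3 constitutive catalytic subunits and Psmb10), 17 cap subunits (6 ATPases, 3 other base subunits and 8 lid subunits), 3 chaperones of cap assembly and 4 alternative activators. The promoters of 4 members are shown because the ratios described below turn on them: Psme1 and Psme4 in microglia and oligodendrocytes, Psme1 and Psmd12 in astrocytes, and Psme1 and Psmb10 in the astrocyte state led by Lcn2 and C3 when its 60TM cells are set against all WT astrocytes. Each is 280 bases long, ends 30 bases after the start site, and comes from RefSeq on mouse build GRCm38.p6, in which 33 of the 40 members matched. Capitals mark matches to an antioxidant response element (TGACNNNGC), an interferon response element, a gamma-activated site (TTCNNNGAA) or an NF-kB site, searched on both strands.
Psme1, chr14:55578244-55578523, plus strand: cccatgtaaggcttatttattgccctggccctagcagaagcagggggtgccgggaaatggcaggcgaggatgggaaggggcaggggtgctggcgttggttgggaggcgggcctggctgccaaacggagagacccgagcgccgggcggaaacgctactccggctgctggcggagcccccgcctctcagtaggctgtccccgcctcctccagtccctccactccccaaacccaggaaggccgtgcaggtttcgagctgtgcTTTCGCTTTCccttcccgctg
Psme4, chr11:30771525-30771804, plus strand: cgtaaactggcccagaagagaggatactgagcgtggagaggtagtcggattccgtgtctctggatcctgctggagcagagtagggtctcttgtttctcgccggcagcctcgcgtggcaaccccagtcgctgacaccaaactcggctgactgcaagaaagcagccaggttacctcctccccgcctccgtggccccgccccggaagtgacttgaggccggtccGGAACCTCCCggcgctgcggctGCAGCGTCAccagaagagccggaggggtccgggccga
Psmd12, chr11:107479278-107479557, plus strand: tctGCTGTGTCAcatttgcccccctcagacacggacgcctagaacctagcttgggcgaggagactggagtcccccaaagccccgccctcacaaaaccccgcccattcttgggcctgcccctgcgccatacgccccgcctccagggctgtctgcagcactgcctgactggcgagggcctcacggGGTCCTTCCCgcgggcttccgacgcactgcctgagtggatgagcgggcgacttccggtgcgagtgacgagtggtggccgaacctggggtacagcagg
Psmb10, chr8:105938363-105938642, minus strand: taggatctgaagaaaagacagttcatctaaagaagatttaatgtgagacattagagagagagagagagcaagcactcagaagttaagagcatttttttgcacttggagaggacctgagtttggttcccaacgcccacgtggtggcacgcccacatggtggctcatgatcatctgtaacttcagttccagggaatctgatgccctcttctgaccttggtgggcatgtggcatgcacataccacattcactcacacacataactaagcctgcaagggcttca
The Psme1 window holds TTTCGCTTTC, the interferon element read on the other strand, from position 10 after the start site. In the Psme4 window lie GCAGCGTCA, the antioxidant element on the other strand, from position -7, and GGAACCTCCC, an NF-kB match, from position -29. The Psmd12 window has GCTGTGTCA, an antioxidant element on the other strand, from position -247, and GGTCCTTCCC, an NF-kB match, from position -67. No match to these motifs was found in the Psmb10 window. The windows of Psme2, the partner of Psme1, are not printed and held no match to these motifs either. Over whole 300-base windows, 6 of the 33 matched members held the antioxidant element, against 14.0% of all genes, and 4 held the interferon element, against 3.99%. The gamma-activated site was in 1 member and 9.55% of all genes, the NF-kB site in 9 members and 22.9%, and the CCAAT box in 12 members and 41.1%. These matches describe letters only.

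Levels of the whole set differed more between cell classes than between genotypes. UMIs here tag the 3' end of a transcript, so CPM is not divided by gene length, and each sum is a share of all UMIs of the class. Dividing cells stood highest, at 6755 CPM in 60TM and 6733 CPM in WT, and border macrophages lowest, at 3898 CPM in 60TM and 3407 CPM in WT. Precursors of oligodendrocytes, Cajal-Retzius cells, endothelial cells, choroid plexus cells and immature neurons followed dividing cells in WT, between 5343 and 6499 CPM. Astrocytes, neurons and oligodendrocytes lay together in WT, at 4122, 4158 and 4259 CPM, and the intervals of neighbours in that order overlapped. Microglia, at 3961 CPM in 60TM and 3648 CPM in WT, were apart from both of their neighbours in WT.

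The summed level was higher in 60TM in 6 of the 13 classes, lower in 2, and had an interval that included 1 in the rest. Neurons and border macrophages had the highest ratios, 1.13 (1.08 to 1.17) and 1.14 (1.08 to 1.22), with 4690 CPM in 60TM and 4158 CPM in WT neurons and the levels given above in border macrophages. Astrocytes, oligodendrocytes, microglia and oligodendrocyte precursor cells (OPCs) had ratios of 1.11, 1.10, 1.09 and 1.07. Choroid plexus cells and committed oligodendrocyte precursors went the other way, with ratios of 0.881 (0.857 to 0.907) and 0.954 (0.929 to 0.980). Radial glia-like cells, dividing cells, immature neurons, Cajal-Retzius cells and endothelial cells had ratios between 0.998 and 1.03.

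**Figure D1:**
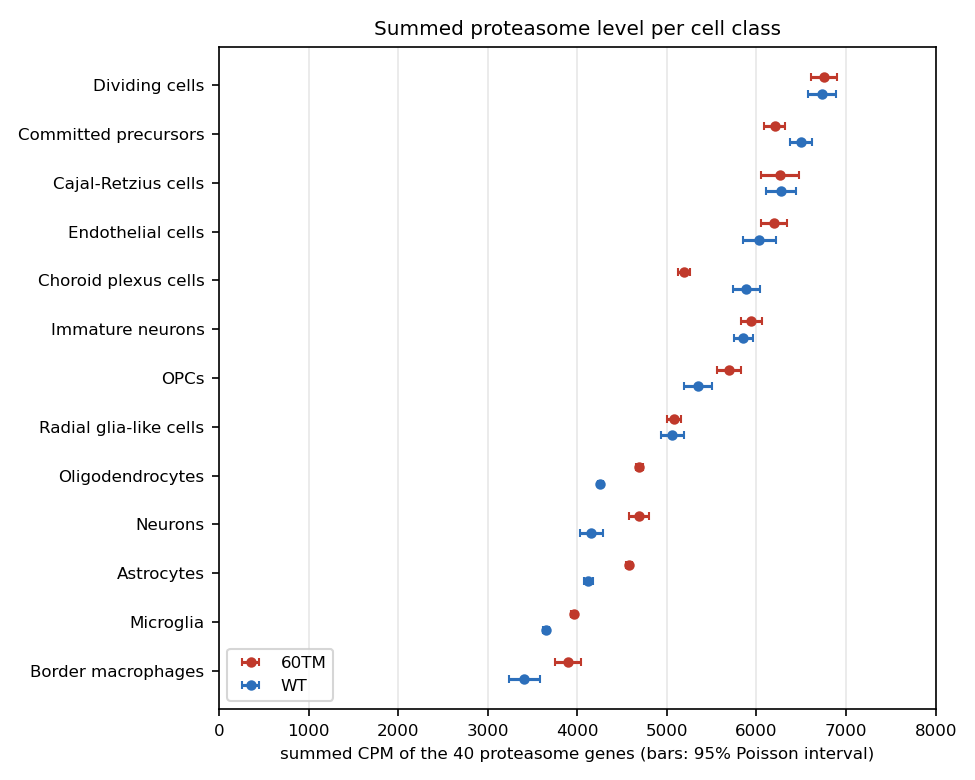
Summed level of the 40 proteasome members (CPM) in each of 13 cell classes, 60TM above WT, with 95% Poisson intervals for counting error. The 60TM value lies above WT in microglia, oligodendrocytes, astrocytes, OPCs, neurons and border macrophages, and below it in choroid plexus cells and committed precursors.

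In astrocytes taken as a class the summed proteasome level was higher by a small step. Without the state led by Lcn2 and C3, described further on, the summed ratio was near 1. For the whole class the sum was 4575 CPM in 60TM (1739 cells) and 4122 CPM in WT (919 cells), a ratio of 1.11 (1.09 to 1.13). Of 39 members that reached 20 UMIs in astrocytes (called measured below), 34 had a ratio above 1 and 20 an interval wholly above it. The shares of all genes above 1 and with such an interval were not counted. These counts therefore do not set the members apart from other genes. No member reached 1.5-fold in either direction, while 8.81% of the 13252 genes measured in astrocytes were that far higher and 10.1% that far lower. Psme1 and Psmd12 passed a smaller threshold, a log2 ratio of 0.32 before any constant is added, against 15.7% of all genes higher and 24.6% lower by that much. The median log2 ratio, of CPM + 5, was 0.15 over the members, whereas the median ratio of all genes was 0.946.

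The alternative activators had the highest ratio of the astrocyte groups, with 174 CPM in 60TM and 144 CPM in WT, a ratio of 1.21 (1.12 to 1.31). Psme1, a subunit of the interferon-linked activator ring, led all members at 76.0 CPM in 60TM and 57.2 CPM in WT, a ratio of 1.33 (1.17 to 1.5). Without the Lcn2 and C3 state described further on, the Psme1 interval included 1 (ratio 1.08). Its partner Psme2 stood at 52.1 and 46.3 CPM in 60TM and WT, 1.12 (0.979 to 1.30). Psme2 has a near copy, Psme2b, in the gene table, to which some of its reads could have been assigned, and Psme2b had 6 UMIs in each library's astrocytes. Psme3, which forms a ring of its own in the nucleus, had 16.6 CPM in 60TM and 15.5 CPM in WT, and Psme4, a large single-chain activator linked to histone degradation, had 29.7 CPM in 60TM and 24.7 CPM in WT. Both of their intervals included 1.

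The cap was higher by 1.14 (1.11 to 1.16), at 1825 CPM in 60TM and 1604 CPM in WT. Within it the lid, which removes ubiquitin from the substrate, gave 1.18 (1.14 to 1.22), and all 8 lid members lay above 1. Psmd12, a lid scaffold subunit, had 121 CPM in 60TM and 94.4 CPM in WT, a ratio of 1.28 (1.17 to 1.42). Psmd7, the lid partner of the deubiquitinase, had 155 CPM in 60TM and 129 CPM in WT, 1.2 (1.11 to 1.31). Among the ATPases, which unfold the substrate, Psmc5 was highest at 133 CPM in 60TM and 108 CPM in WT, 1.23 (1.13 to 1.35), and Psmc6 lowest at 110 CPM in 60TM and 113 CPM in WT, 0.976 (0.891 to 1.07). The chaperones of cap assembly did not share the step: Psmd5, Psmd9 and Psmd10 summed to 87.1 CPM in 60TM and 87.7 CPM in WT, and Psmd5 had the lowest ratio of all measured members, 0.906 (0.751 to 1.10).

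The core summed to 2488 CPM in 60TM astrocytes and 2287 CPM in WT astrocytes, a ratio of 1.09 (1.07 to 1.11). With a filter of 200 genes and 5% mitochondrial UMIs the core ratio was 1.0, and without the Lcn2 and C3 state it was 0.972. Its alpha ring gave 1.13 (1.10 to 1.16), led by Psma7 with 214 CPM in 60TM and 175 CPM in WT, 1.23 (1.14 to 1.32). Without the Lcn2 and C3 state the Psma7 interval included 1 (ratio 1.07). The constitutive catalytic subunits gave 1.01 (0.966 to 1.05), the lowest of the core groups. Psmb5, the chymotrypsin-like subunit, had 209 CPM in 60TM and 215 CPM in WT, 0.972 (0.910 to 1.04). Psmb7, the trypsin-like subunit, had 98.9 CPM in 60TM and 100 CPM in WT, and Psmb6, the caspase-like subunit, 202 CPM in 60TM and 191 CPM in WT. Psmb1, a structural beta subunit, had 223 CPM in 60TM and 215 CPM in WT, 1.03 (0.970 to 1.10). Psmb10, the interferon-inducible counterpart of Psmb7, had 50.2 CPM in 60TM and 42.9 CPM in WT, 1.17 (1.01 to 1.35), and 0.981 without the Lcn2 and C3 state.

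Other cell types' markers in astrocytes were near the same level in both libraries for microglia (95.5 CPM in 60TM and 101 CPM in WT over 8 markers, 3 of them higher) and oligodendrocytes (290 CPM in 60TM and 339 CPM in WT over 7). Choroid plexus markers, almost all Ttr, were at 448 CPM in 60TM and 30.3 CPM in WT. Immediate early genes, which enzymatic dissociation can induce, summed to 1852 CPM in 60TM astrocytes and 584 CPM in WT astrocytes, with 11 of 11 measured past 1.5-fold upward, against 8.81% of all genes. Their part in the proteasome ratios was not tested. With each cell thinned to 2000 UMIs the summed ratio was 1.10 (1.07 to 1.14), and with a filter of 200 genes and 5% mitochondrial UMIs it was 1.04.

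**Figure D2:**
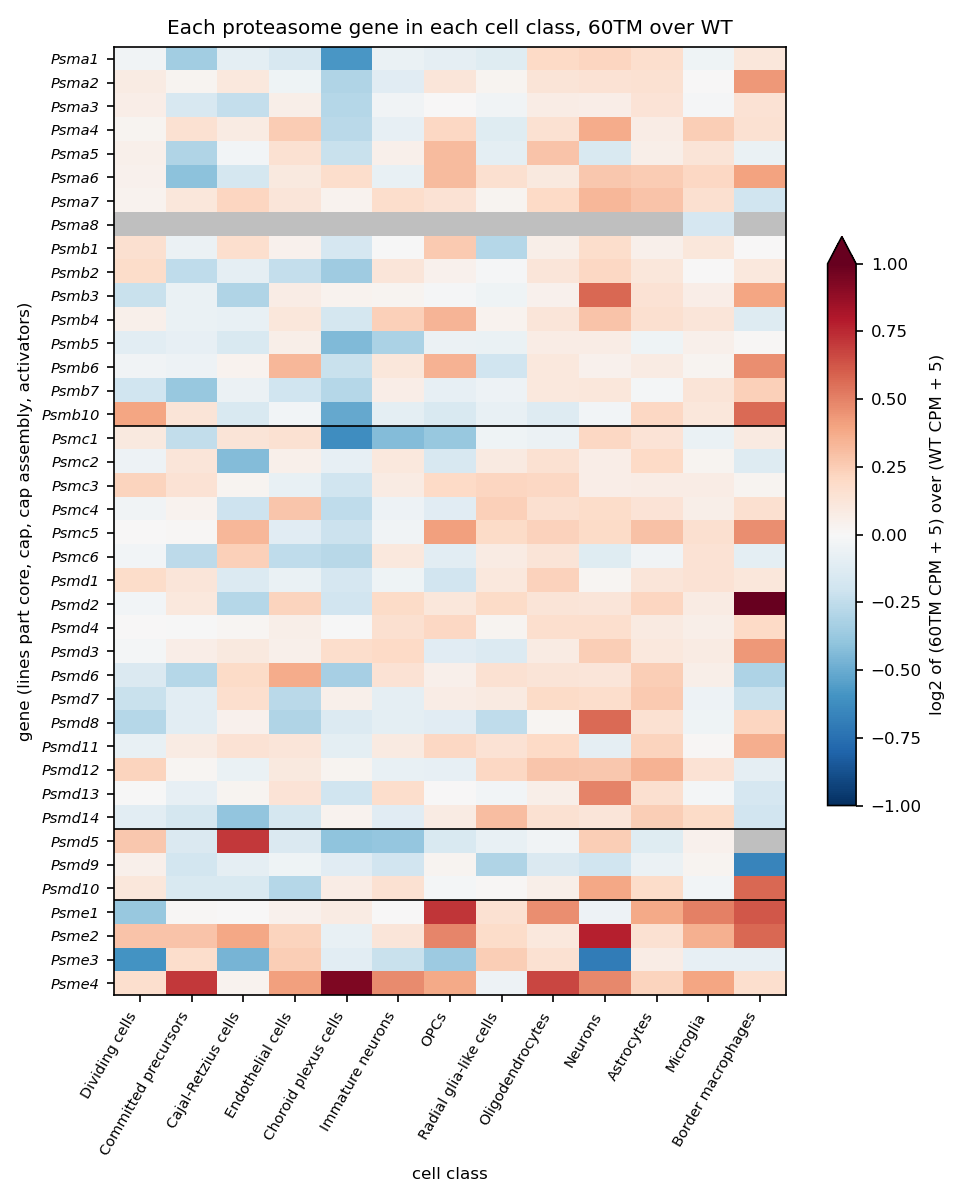
Log2 ratio of CPM + 5, 60TM over WT, for each of the 40 members (rows, by role) in each of 13 cell classes (columns), with grey for members under 20 UMIs in a class. Psme4, Psme2 and Psma7 lie above 0 in 12 of 13 classes, and 29 of the 39 members measured in choroid plexus cells lie below 0. The shares of all genes that do so were not counted.

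The step seen in astrocytes as a class was largest in 1 state, and without that state the summed ratio was near 1. A second clustering of the astrocytes, in which no member was among the genes used, gave 5 states named by their leading genes. The state led by Lcn2 and C3 held 451 60TM cells and 4 WT cells. Its Lcn2, a secreted lipocalin and a marker of reactive astrocytes, stood at 3411 CPM, against 44.2 CPM in the other 60TM astrocytes. Because WT had too few such cells, the state's 60TM cells were set against all WT astrocytes.

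In the Lcn2 state the 40 members summed to 5414 CPM, against 4122 CPM in WT astrocytes, a ratio of 1.31 (1.29 to 1.34). Of 39 measured members, 37 lay above 1 and 35 had an interval wholly above it. The shares of all genes above 1 and with such an interval were not counted, and intervals narrow as UMIs rise. These 2 counts therefore do not set the members apart from other genes. Of the 39, 28 passed a log2 ratio of 0.32 upward and none downward, against 21.2% and 36.7% of the 12285 genes measured. At 1.5-fold 6 were higher and none lower, against 12.7% and 21.8% of genes. The median of all genes in this comparison was 0.911 (a log2 shift of over 0.1), and scaled to it the summed ratio was 1.44. Core and cap were higher by nearly the same ratio, with 3006 CPM in the state and 2287 CPM in WT astrocytes for the core (1.31) and 2088 CPM in the state and 1604 CPM in WT astrocytes for the cap (1.30).

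Psme1 had 104 CPM in the Lcn2 state and 57.2 CPM in WT astrocytes, a ratio of 1.82 (1.59 to 2.10), the highest of the members. Psmb10 had 66.1 CPM in the state and 42.9 CPM in WT, 1.54 (1.30 to 1.82). The other members past 1.5-fold were Psme4, Psma7, Psma6, a further alpha ring subunit, and Psmd12, with ratios of 1.53, 1.53, 1.52 and 1.52. At the low end stood the chaperone Psmd9 (0.966) and the ATPase Psmc6 (0.983), and the constitutive catalytic subunits Psmb5 and Psmb7 had ratios of 1.13 and 1.15. Psmb6 had 238 CPM in the state and 191 CPM in WT. Activators summed to 224 CPM in the state and 144 CPM in WT astrocytes, 1.55 (1.42 to 1.70), and the assembly chaperones to 96.6 CPM in the state and 87.7 CPM in WT astrocytes, with an interval that included 1.

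The Lcn2 state was deeper than WT astrocytes, with a median of 10153 UMIs per cell in the state and 6121 in WT astrocytes, and its mitochondrial share was 5.57% in the state and 4.20% in WT astrocytes. Thinned to 2000 UMIs the ratio was 1.33 (1.28 to 1.38). With a filter of 200 genes and 5% mitochondrial UMIs it was 1.185, but the astrocytes were then clustered anew. The state drawn there was led by Lcn2 and Cxcl10 and held 399 60TM cells and 11 WT cells. Its Lcn2 was at 1798 CPM over both libraries, so filter and set of cells changed together. Summed astrocyte markers were lower in the Lcn2 and C3 state, 15936 CPM against 25339 CPM in WT astrocytes, while none of the 8 was at 0. Microglial markers were at 99.0 CPM in the state and 101 CPM in WT astrocytes, choroid markers at 599 CPM in the state and 30.3 CPM in WT, ependymal markers at 435 CPM in the state and 129 CPM in WT, and immediate early genes at 2864 CPM in the state and 584 CPM in WT. Their part in the result was not tested.

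Without the Lcn2 state the 60TM astrocytes summed to a ratio of 1.01 (0.990 to 1.02) over the WT astrocytes, with 0.972 for the core and 1.05 for the cap. Psmd12 kept a ratio of 1.17 (1.05 to 1.29), and Psmb5 lay at 0.887. The state led by Thrsp and Cst3, with 657 60TM cells and 19 WT cells, was at 1.07 (1.05 to 1.09) of WT astrocytes.

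**Figure D3:**
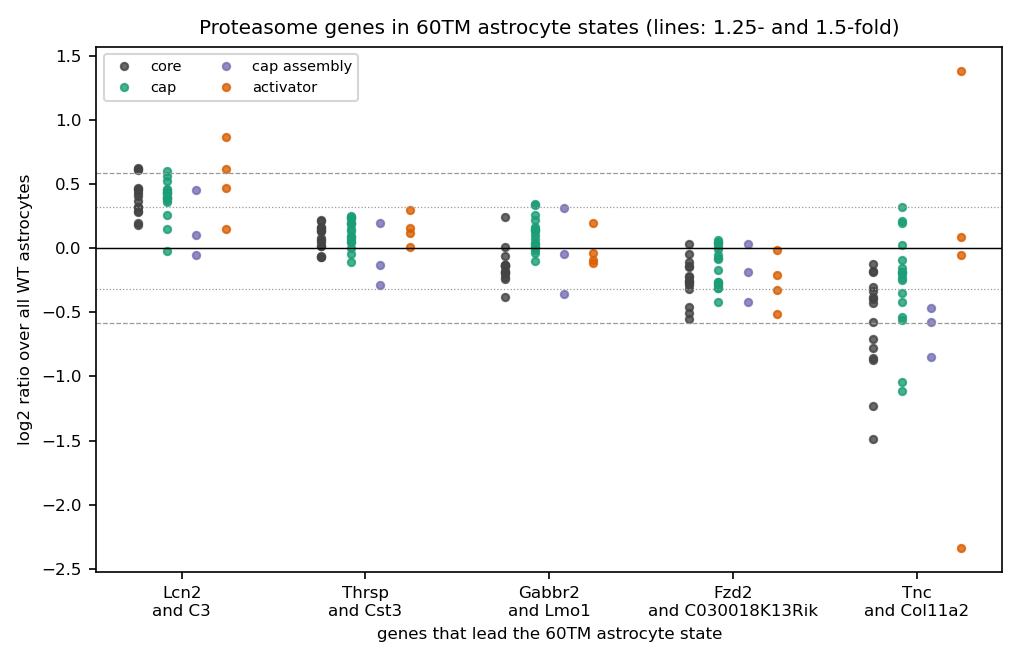
Ratio of each member's CPM in the 60TM cells of each astrocyte state over all WT astrocytes as log2, with dotted lines at 0.32 and dashed lines at 1.5-fold. Members of the Lcn2 and C3 state sit mostly past 0.32, whereas those of the Fzd2 and Tnc states sit mostly below 0.

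Of the 5 states, 3 had at least 50 cells in each library and allowed 60TM and WT cells of the same state to be compared. In the state led by Gabbr2 and Lmo1 (288 60TM cells and 345 WT cells) the members summed to 4056 CPM in 60TM and 4089 CPM in WT, a ratio of 0.992 (0.964 to 1.02). The core was at 0.933 and the cap at 1.06, so that the core sum over the cap sum was 1.18 in 60TM and 1.35 in WT. Psmd11 and Psmd12 of the lid were among the highest there, with 156 and 119 CPM in 60TM and 126 and 98.4 CPM in WT.

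In the state led by Fzd2 and C030018K13Rik (275 60TM cells and 224 WT cells) the sum was 3633 CPM in 60TM and 4296 CPM in WT, a ratio of 0.846 (0.817 to 0.876). Of 39 members, 6 lay above 1. The median ratio of all genes in this comparison was 0.973, and the share of all genes above 1 was not counted. The constitutive catalytic subunits were at 395 CPM in 60TM and 554 CPM in WT, 0.713 (0.644 to 0.789). Psmb5 had 156 CPM in 60TM and 251 CPM in WT, 0.623 (0.532 to 0.730), Psmb10 had 30.2 CPM in 60TM and 49.6 CPM in WT, and Psme1 had 45.6 CPM in 60TM and 64.1 CPM in WT. Psmd12 was at 97.2 CPM in 60TM and 92.4 CPM in WT.

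The state led by Tnc and Col11a2 was small in 60TM (68 cells) and large in WT (327 cells). Its members summed to 3211 CPM in 60TM and 3973 CPM in WT, a ratio of 0.808 (0.757 to 0.862), with 0.716 (0.653 to 0.785) for the core and 0.919 (0.830 to 1.02) for the cap. All 15 measured core members lay below 1, and Psmb2, a structural beta subunit, had 67.5 CPM in 60TM and 159 CPM in WT. The median ratio of all genes in this comparison was 1.052, and the share of all genes below 1 was not counted. Among the members, Psmb2 had a ratio of 0.425 from 22 UMIs in 60TM. Psme4 was highest at 64.5 CPM in 60TM and 37.1 CPM in WT, 1.74 (1.02 to 2.86), from 21 and 72 UMIs. Thinned to 2000 UMIs, the summed ratio was 0.869 in the Fzd2 state and 0.873 in the Tnc state. The mitochondrial share was close in the Fzd2 state (3.90% in 60TM and 3.92% in WT) and higher in 60TM cells of the Tnc state (6.85% in 60TM and 5.24% in WT), and its part in the result was not tested.

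**Figure D4:**
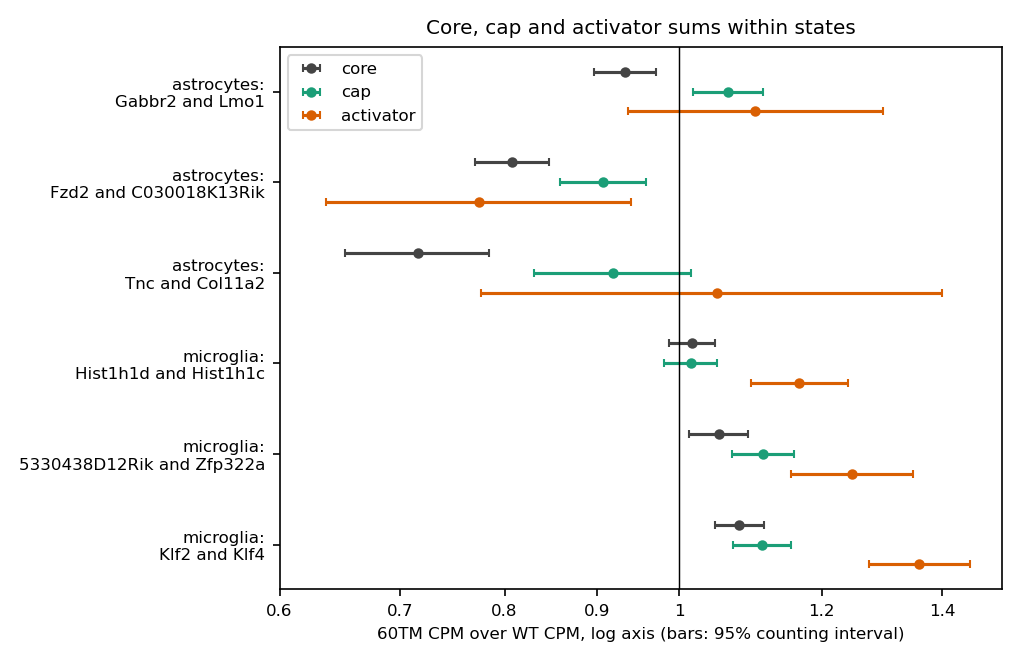
Ratio of 60TM over WT cells of the same astrocyte or microglial state, for the core, cap and activator sums, with 95% intervals on a log axis. The core lies below the cap and below 1 in each of the 3 astrocyte states, and the activators lie above core and cap in each of the 3 microglial states, described further on.

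With the states weighted by their share of WT astrocyte UMIs, an alternative chosen after the states were seen, the summed ratio of astrocytes was 0.895, with 0.830 for the core, 0.979 for the cap and 1.01 for the activators. The Tnc state carried 1942819 of the 5940037 WT astrocyte UMIs in this weighting and had only 68 60TM cells. The ratio of 1.11 for the class was taken over the 60TM mix of states, in which the Lcn2 state made up 25.9% of the cells. States compared above between genotypes had lower ratios. The Lcn2 and Thrsp states held 4 and 19 WT cells, so a change within cells and a change of mix cannot be told apart.

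In microglia the activators stood apart from the rest of the proteasome. The 40 members summed to 3961 CPM in 60TM (2470 cells) and 3648 CPM in WT (2107 cells), a ratio of 1.09 (1.07 to 1.10), with 31 of 40 above 1. The median ratio of all genes in microglia was 0.976, and the share of all genes above 1 was not counted. Core and cap were at 1.06 (1.04 to 1.08) and 1.05 (1.03 to 1.07), while the activators summed to 531 CPM in 60TM and 391 CPM in WT, 1.36 (1.31 to 1.4). None of the 40 reached 1.5-fold, against 6.97% of 12871 genes higher and 5.03% lower at that fold, and 4 passed a log2 ratio of 0.32 in either direction, against 12.7% of genes higher and 13.7% lower.

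Psme1 was at 328 CPM in 60TM microglia and 230 CPM in WT microglia, a ratio of 1.43 (1.37 to 1.49). Psme2 had 137 CPM in 60TM and 106 CPM in WT, 1.30 (1.21 to 1.38), while its copy Psme2b had 24.5 CPM in 60TM and 25.1 CPM in WT. Psme4 had 42.5 CPM in 60TM and 31.1 CPM in WT, 1.37 (1.21 to 1.54), and Psme3, at 22.6 CPM in 60TM and 24.3 CPM in WT, did not follow. The next highest members were the alpha ring subunits Psma4, with 129 CPM in 60TM and 108 CPM in WT, and Psma6, with 95.1 CPM in 60TM and 81.8 CPM in WT.

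Catalytic subunits differed little in microglia: Psmb5 was at 1.04 (0.970 to 1.10), Psmb6 at 1.02 (0.957 to 1.08), Psmb7 at 1.10 (1.01 to 1.2) and Psmb10 at 1.09 (1.01 to 1.17), the last with 107 CPM in 60TM and 98.3 CPM in WT. The 5 lowest by rank, Psma3, Psma1, Psmd8, Psmd7 and Psmc1, had ratios between 0.950 and 0.991 and intervals that included 1. Psma8 was measured only here, with 77 UMIs in 60TM and 70 in WT, a ratio of 0.788 (0.562 to 1.10).

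The microglial states were formed like the astrocyte states. In the state led by Klf2 and Klf4 (908 60TM cells and 338 WT cells) the sum gave 1.12 (1.10 to 1.15) and the activators 1.36 (1.28 to 1.45). Psme4 there had 40.2 CPM in 60TM and 21 CPM in WT, 1.91 (1.45 to 2.57). States led by Hist1h1d and Hist1h1c and by 5330438D12Rik and Zfp322a gave sums of 1.03 (1.01 to 1.05) and 1.10 (1.07 to 1.13), with activators at 456 and 431 CPM in 60TM and 391 and 346 CPM in WT. The state led by the interferon-induced genes Ifitm3 and Oasl2 held 384 60TM cells and 32 WT cells. Its 60TM cells over all WT microglia gave 1.15 (1.13 to 1.17) for the sum and 1.60 (1.51 to 1.69) for the activators, with Psme1 at 399 CPM in the state and 230 CPM in WT microglia.

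Choroid markers in microglia were at 381 CPM in 60TM and 35.7 CPM in WT, astrocyte markers at 246 CPM in 60TM and 234 CPM in WT, and immediate early genes at 16548 CPM in 60TM and 11876 CPM in WT. The summed microglial markers were lower, 24130 CPM in 60TM and 28865 CPM in WT. Their part in the proteasome ratios was not tested.

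In oligodendrocytes the members summed to 4692 CPM in 60TM (751 cells) and 4259 CPM in WT (1377 cells), a ratio of 1.10 (1.09 to 1.11), and 35 of 39 measured members lay above 1. The median ratio of all genes in this class was 1.005, and the share of all genes above 1 was not counted. Core and cap were at 1.09 (1.07 to 1.10) and 1.12 (1.10 to 1.13). The activators were at 111 CPM in 60TM and 80.8 CPM in WT, 1.37 (1.28 to 1.47), and 2 of them, Psme4 and Psme1, were the only members past 1.5-fold, against 6.96% of 12409 genes higher and 4.35% lower.

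Psme4 had 48.8 CPM in 60TM oligodendrocytes and 28.8 CPM in WT oligodendrocytes, a ratio of 1.70 (1.52 to 1.89). Psme1 had 14.6 CPM in 60TM and 9.20 CPM in WT, 1.58 (1.30 to 1.93). Microglial markers, from cells rich in Psme1, were at 74.3 CPM in 60TM oligodendrocytes and 53.6 CPM in WT oligodendrocytes, with 8 of 8 higher, and their part in the Psme1 ratio was not tested. Psme2 and Psme3 were at 1.09 (0.967 to 1.23) and 1.15 (0.966 to 1.38).

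The alpha ring subunit Psma5 had 134 CPM in 60TM oligodendrocytes and 109 CPM in WT oligodendrocytes, 1.23 (1.16 to 1.31). The lid and ATPase subunits Psmd12 and Psmc5 had 102 and 137 CPM in 60TM and 82.9 and 116 CPM in WT, with ratios of 1.23 and 1.18. Psmb5, Psmb6 and Psmb7 were at 1.05, 1.08 and 1.08. The lowest by rank were Psmb10, with 12.2 CPM in 60TM and 13.8 CPM in WT (0.881, 0.728 to 1.06), the chaperone Psmd9, with 49.2 CPM in 60TM and 54.8 CPM in WT (0.897, 0.816 to 0.985), the ATPase Psmc1 (0.955), the lid subunit Psmd8 (1.01) and Psmb1 (1.04).

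Across the 13 classes the 4 activators were higher in unequal numbers of classes. Psme4 was higher in 12 of 13 classes, with a median ratio of 1.37 and an interval above 1 in 6 of them. Psme2 was also higher in 12, with a median ratio of 1.23 and an interval above 1 in 3. Psme3 was higher in 5, with a median ratio of 0.930 and an interval above 1 in none. Such counts were not particular to the activators, and the share of all genes with counts as high was not taken. The 13 classes come from the same libraries, so they are not independent repeats. The alpha ring subunit Psma7 was higher in 12 classes, with a median ratio of 1.10 and an interval above 1 in 5. Psmc3 and Psmd4 were higher in 11, each with an interval above 1 in 1. Psmc5 was higher in 10, with an interval above 1 in 5 and below 1 in 1. The highest ratios of Psme4 were 2.20 (1.31 to 3.93) in choroid plexus cells, with 34.7 CPM in 60TM and 15.8 CPM in WT, and 1.79 (1.17 to 2.79) in committed precursors, with 36.1 CPM in 60TM and 20.2 CPM in WT. Both classes had a lower sum of all members. Psme1 was higher in 11 of 13 classes, with a median ratio of 1.06 and an interval above 1 in 5, among them OPCs, at 100 CPM in 60TM and 59.1 CPM in WT (1.69, 1.21 to 2.41). Psme1 was the only OPC member past 1.5-fold, against 6.66% of genes higher and 8.62% lower. In dividing cells Psme1 was lower, at 93.3 CPM in 60TM and 123 CPM in WT, 0.758 (0.585 to 0.982).

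Border macrophages (121 60TM cells and 81 WT cells) had 5 members at least 1.5-fold higher, against 12.1% of genes, and 1 at least as far lower, against 11.1%. Those whose interval excluded 1 were Psme1 with 365 CPM in 60TM and 235 CPM in WT, Psme2 with 149 CPM in 60TM and 98.1 CPM in WT, Psmb10 with 128 CPM in 60TM and 85.0 CPM in WT, and the cap scaffold Psmd2 with 87.8 CPM in 60TM and 39.2 CPM in WT, the last from 65 and 18 UMIs. Neurons (88 60TM cells and 69 WT cells) had 3 such higher members, against 8.59% of genes, and 1 lower, against 11.1%. These were the lid subunit Psmd8 at 116 CPM in 60TM and 76.8 CPM in WT, the beta subunit Psmb3 at 160 CPM in 60TM and 106 CPM in WT, Psme2 at 31.9 CPM in 60TM and 16.6 CPM in WT, and Psme3 at 25.6 CPM in 60TM and 44.6 CPM in WT.

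In choroid plexus cells (242 60TM cells and 59 WT cells) the sum was 5189 CPM in 60TM and 5887 CPM in WT, and 29 of 39 members lay below 1. The median ratio of all genes in this class was 1.036, and the share of all genes below 1 was not counted. As the mean over cells the sum was 5490 CPM in 60TM and 5770 CPM in WT, a ratio of 0.951. The alpha ring subunit Psma1 had 76.0 CPM in 60TM and 116 CPM in WT, 0.653 (0.529 to 0.810), and the ATPase Psmc1 had 45.1 CPM in 60TM and 72.1 CPM in WT, 0.626 (0.478 to 0.827). At least 1.5-fold lower were 3 members, against 8.19% of genes, and Psme4 was the 1 member as far higher, against 17.5%. Oligodendrocyte markers in this class were at 113 CPM in 60TM and 1072 CPM in WT, and their part in the lower sum was not tested. In committed precursors (91 60TM cells and 90 WT cells) the core was at 0.931 (0.898 to 0.966) and the cap at 0.974 (0.935 to 1.01), and Psme4 alone passed 1.5-fold, against 7.07% of genes higher and 5.92% lower.

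**Figure D5:**
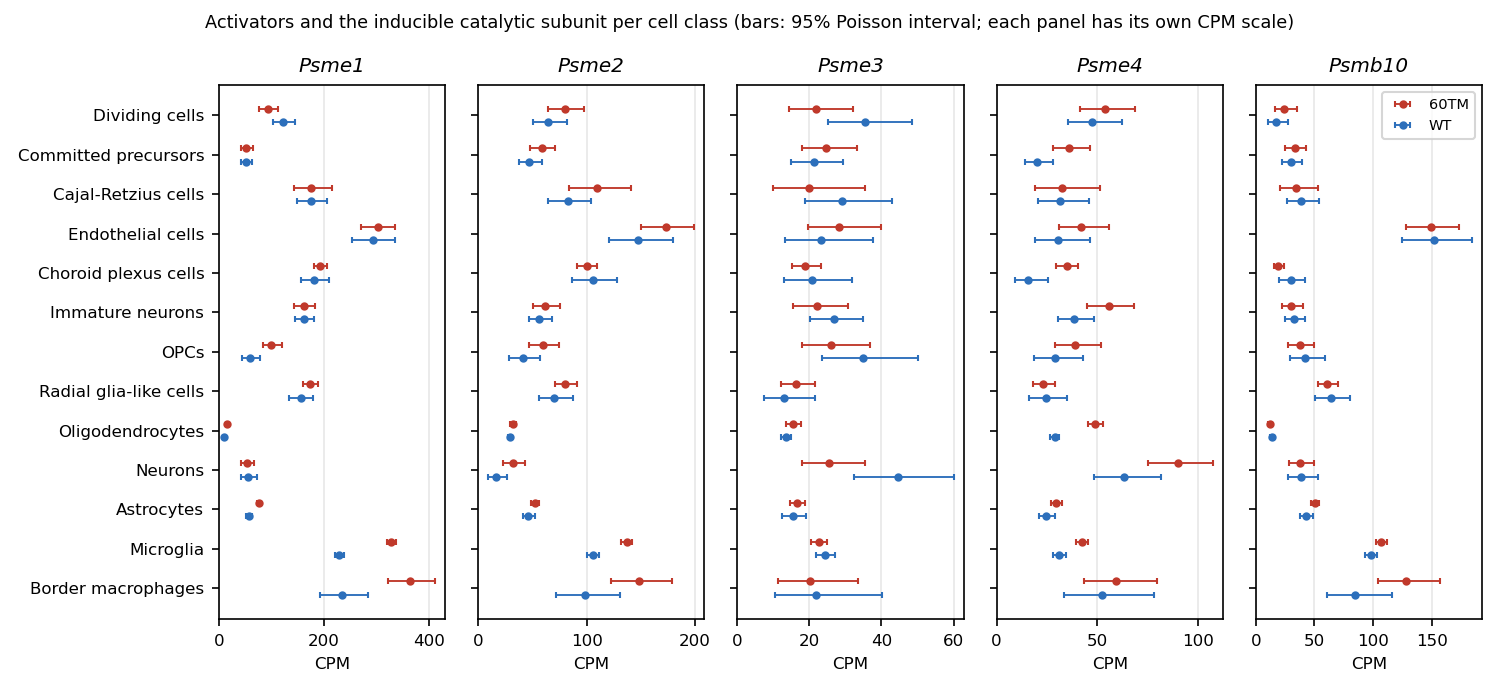
Level (CPM, a separate scale per panel) of the 4 activators Psme1, Psme2, Psme3 and Psme4 and of Psmb10 in each of 13 classes, 60TM above WT, with 95% Poisson intervals. Psme1 is highest in border macrophages, microglia and endothelial cells and lowest in oligodendrocytes, and Psme4 lies higher in 60TM in all classes but radial glia-like cells.

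Psmb10 replaces Psmb7 in the immunoproteasome, so their UMIs were set against each other as a pair. Psmb10 made up 33.7% (31.7 to 35.7) of the pair in 60TM astrocytes and 30.0% (27.0 to 33.2) in WT astrocytes, and 36.5% (33.4 to 39.8) in the Lcn2 state. The share was 60.4% in 60TM microglia and 60.8% in WT microglia, and 8.09% in 60TM oligodendrocytes and 9.75% in WT oligodendrocytes. Thus the classes ranged far more widely than the genotypes. Psmb8 and Psmb9, outside the member rule, had 325 and 129 UMIs in 60TM astrocytes and 18 and 4 UMIs in WT astrocytes. Psmb8 made up 9.53% of its pair with Psmb5 in 60TM astrocytes, 1.39% in WT astrocytes and 15.1% in the Lcn2 state.

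Genes around the proteasome were read from fixed lists. Of 5 further cap subunits, 1 was at least 1.5-fold higher in the Lcn2 state, against 12.7% of all genes, the deubiquitinase Uchl5, with 22.7 CPM in the state and 14.1 CPM in WT astrocytes. Of 6 measured assembly factors and inhibitors, none passed 1.5-fold there and 3 passed a log2 ratio of 0.32 upward, against 21.2% of all genes. Pomp, which completes the core, had 186 CPM in the state and 133 CPM in WT, 1.4 (1.27 to 1.54). Among 6 regulators, none passed 1.5-fold in the Lcn2 state and 3 passed a log2 ratio of 0.32 upward, beside the same 21.2% of genes: Nfe2l1 with 72.8 CPM in the state and 51.9 CPM in WT, the oxidative stress factor Nfe2l2 with 198 CPM in the state and 136 CPM in WT, and the unfoldase Vcp with 226 CPM in the state and 163 CPM in WT.

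Among ubiquitin genes and ubiquitin-activating enzymes, Rps27a passed 1.5-fold upward in the Lcn2 state, against 12.7% of all genes. It had 841 CPM in the state and 473 CPM in WT astrocytes. The aggregate-binding receptor Sqstm1 had 321 CPM in the state and 166 CPM in WT, 1.94 (1.79 to 2.10), whereas the shuttle factor Ubqln2 had 90.8 CPM in the state and 134 CPM in WT, 0.680 (0.605 to 0.764). Of 7 peptide-loading genes, which bring proteasome products to the cell surface, 6 passed 1.5-fold upward, against 12.7% of all genes, H2-D1 with 217 CPM in the state and 41.1 CPM in WT. Irf1, which drives immunoproteasome genes, had 55.7 CPM in the state and 4.88 CPM in WT.

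Among interferon-linked regulators in microglia, Irf1 and Nlrc5 passed 1.5-fold upward, against 6.97% of all genes. Irf1 had 56.8 CPM in 60TM and 36.2 CPM in WT, and Nlrc5, low in both libraries, had 4.22 CPM in 60TM and 0.895 CPM in WT. None of the 6 regulators of proteasome genes passed 1.5-fold in microglia, where Nfe2l2 was lower, at 203 CPM in 60TM and 226 CPM in WT. Of 7 peptide-loading genes, 2 passed 1.5-fold upward there, against 6.97% of all genes. These were H2-D1 and H2-K1, with 874 and 537 CPM in 60TM and 449 and 313 CPM in WT. In oligodendrocytes Nfe2l2 had 77.8 CPM in 60TM and 58.2 CPM in WT and Vcp 279 CPM in 60TM and 233 CPM in WT, while 3 of 7 peptide-loading genes passed 1.5-fold upward, against 6.96% of all genes, and 1 downward, against 4.35%. H2-D1 was higher, with 99.4 CPM in 60TM and 27.5 CPM in WT.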

How the data were processed

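Hippocampal single cells of 60TM and WT mice were measured, 1 library per genotype. The deposited matrices hold raw UMI counts per gene and barcode, made with Cell Ranger 5.0.0 per the file headers and the submitters' processing notes, which also name build GRCm38. The gene and barcode lists deposited beside them carry names and no measurement (unit: other). Counting parameters are not given in the sources used here.

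Barcodes with fewer than 500 genes or over 15% mitochondrial UMIs were removed. Doublets were scored with Scrublet as run by scanpy 1.11.5, and the highest scores were removed up to 0.8% per 1000 barcodes, 610 barcodes (6.98%) in 60TM and 377 (5.49%) in WT. Both libraries were clustered together without integration (leidenalg 0.10.2, resolution 1, 28 clusters), and clusters were named from 137 markers of 23 classes. A class needed 3 markers with a log2 ratio of at least 1 in at least 20% of cells. Names were rebuilt here, so they may differ from the study's. Astrocytes and microglia were clustered again at resolution 0.5 into states, a step chosen after seeing the data. The Lcn2 state is the astrocyte state with at least 1000 CPM of Lcn2.

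Raw counts were summed per library and class and divided by the class's UMI total. Ratios of 60TM CPM over WT CPM have exact conditional-binomial 95% intervals, sums exact Poisson intervals and shares exact Clopper-Pearson intervals. A member was measured with at least 20 UMIs in a class. PCR copies are removed by the UMIs, and the intervals cover counting error only. The intervals were checked on simulated Poisson counts. These hold no variation between cells, mice or libraries, so the check says nothing about such variation. Coordinates come from GENCODE M21 on build GRCm38, to which 32158 of the 32285 genes were matched by identifier.

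Named in astrocytes, microglia and oligodendrocytes are Psmb5, Psmb6, Psmb7, Psmb10, Psme1 to Psme4, and the 5 highest and 5 lowest members by the interval bound nearest to 1. Named in other classes are members past 1.5-fold whose interval excludes 1. Context lists are given by count with up to 4 examples, apart from results that are not reported here. Genes named within astrocyte and microglial states, Psme1 in dividing cells, and examples that miss 1.5-fold were added after their values were seen. The members and lists were chosen with earlier results of these data known. Alternatives covered scaling, doublets, cell filters, depth, clustering, class naming and state mix.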

Additional observations from a re-analysis of the deposited data

Results flagged for a closer look

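Of the summed ratios of all 40 members, 4 ran opposite to that of astrocytes as a class, which was 1.11 with an interval above 1, and these differences between ratios were not tested. Committed oligodendrocyte precursors were at 0.954 (0.929 to 0.980), with 6202 CPM in 60TM and 6499 CPM in WT. Choroid plexus cells were at 0.881 (0.857 to 0.907), with 5189 CPM in 60TM and 5887 CPM in WT. Within the astrocyte state led by Fzd2 and C030018K13Rik, 60TM over WT cells gave 0.846 (0.817 to 0.876). Within the state led by Tnc and Col11a2, 60TM over WT cells gave 0.808 (0.757 to 0.862), from 68 60TM cells and 327 WT cells.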

How the results depend on the processing

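No paired analysis was possible because each genotype has 1 library, and no library could be left out in turn. Astrocyte ratios moved most. For all members, core and cap they were 1.17, 1.15 and 1.2 when scaled by the median ratio of all genes, 1.14, 1.11 and 1.18 with no doublets removed, 1.04, 1.0 and 1.09 with a filter of 200 genes and 5% mitochondrial UMIs, and 1.16, 1.13 and 1.19 with unnamed clusters added. Without the Lcn2 state they were 1.01, 0.972 and 1.05, and the activators 1.04. With states weighted by their share of WT astrocyte UMIs, added after seeing the data, all members, core, cap and activators gave 0.895, 0.830, 0.979 and 1.01. With only the 3 states that have 50 cells in each library, also added later, they gave 0.930, 0.874, 1.01 and 0.909. The mean over cells and the thinned, finer-clustered and marker-scored versions kept the astrocyte sums within their intervals. For the Lcn2 state over WT astrocytes the sum was 1.44 when scaled, 1.27 with no doublets removed, 1.185 with at most 5% mitochondrial UMIs and 1.35 as the mean over cells. The doublet and mitochondrial versions clustered the astrocytes anew, so their Lcn2 state is a different set of cells. In microglia the sum was 1.11 when scaled, and in oligodendrocytes 1.11 as the mean over cells. Members past 1.5-fold in astrocytes numbered 1 after thinning to 2000 UMIs, and past a log2 ratio of 0.32 there were 2 in astrocytes and 4 in microglia. Of 375 alternative values of single named members, 349 stayed within the interval of the main value, 23 moved beyond it and 3 whose interval had excluded 1 changed side of it. Those 3 were Psmb10 in astrocytes without the Lcn2 state (0.981), and Psmb1 (0.986) and Psmb5 (0.955) in oligodendrocytes thinned to 2000 UMIs. The causes were not tested. Depth limits members such as Psma8 and Psme3 and the small classes, where intervals are wide.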
